A study of Mus musculus with 4 samples.

Results

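The spliceosome core and splicing factor genes are 40 genes listed by symbol, covering the proteins of the U1, U2 and U5 small nuclear ribonucleoproteins (snRNPs), the U4/U6.U5 tri-snRNP, U2AF, the Prp19 complex and the SR proteins. A gene was read from a row of the expression table that carried its symbol and no other, and where a gene had several such rows the brightest on average was taken. This found 37 of the 40 genes, among 22180 genes found in the same way over the whole table. Snrpa and Snrpf share their row with other symbols and Srsf7 was matched to no row, so these 3 genes are not described here. All 37 passed the limit for dim genes, a mean log2 signal of 4.835, and belong to the 16635 genes tested.

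Signals were measured on whole-transcript Affymetrix arrays in sorted Thy1+ LSK cells of mouse bone marrow, a lineage-negative fraction with Sca-1 and Kit on its surface that is enriched for haematopoietic stem cells. The Nol3-/- MPN group had 2 arrays, from mice that lack Nol3 and carry the label MPN, taken here as myeloproliferative neoplasm. The Nol3+/+ group had 2 arrays, from mice with intact Nol3, which encodes an inhibitor of apoptosis. All mice were on the C57BL/6 background and 11 to 18 months old, the cells were uncultured, and no treatment was given. The groups follow the sample labels, where MPN stands beside Nol3-/- alone, although the series title leaves room for MPN in both genotypes. Nothing in the labels says how the deletion was made, whether an array held 1 animal or a pool, or that the arrays came from separate animals, so p-values measure only the spread between these arrays, which may be technical.

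The spliceosome removes introns from precursor mRNA. U1 snRNP pairs with the start of the intron, U2AF and U2 snRNP recognise its branch site and end, and the tri-snRNP then joins and is remodelled into the catalytic form. The U1, U2, U4 and U5 snRNPs are each built on a ring of Sm proteins and U6 on a related LSm ring, while SR proteins bind exons and help to choose splice sites. In human myeloid neoplasms, mutations recur in SF3B1, SRSF2 and U2AF1. A whole-transcript signal sums over the exons of a gene and does not measure how its introns were spliced.

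The arrays divide by sex-linked signal as they do by genotype. Xist, the RNA that coats the inactive X chromosome, read 10.88 and 10.69 in the Nol3-/- MPN arrays, against 5.43 and 5.28 in the Nol3+/+ arrays. The Y-linked genes Eif2s3y, Kdm5d and Uty were lower in both Nol3-/- MPN arrays, with log2 differences of -2.74, -1.19 and -1.50. Genotype, the disease label and sex-linked signal cannot be told apart in any result below. Nol3+/+ replicate 1 stood apart, correlating across the genes tested at 0.899 and 0.908 with the Nol3-/- MPN arrays and at 0.911 with the other Nol3+/+ array, against 0.929 to 0.949 between the other arrays. Of the sort genes, Kit read 8.38 and 7.39 in Nol3-/- MPN against 8.07 and 8.10 in Nol3+/+. Thy1 lay near the limit for dim genes, at 4.64 and 5.24 in Nol3-/- MPN against 4.74 and 5.02 in Nol3+/+. Ly6a, which encodes Sca-1, was matched to no row, alone or with other symbols. Of 10 stem and progenitor genes, 8 were tested, 4 with a positive and 4 with a negative difference. Hlf was lowest, at -0.83, and Mecom highest, at 0.31. The arrays did not overlap for 3 of the 8 (37.5%), 1 higher and 2 lower in Nol3-/- MPN, against 35.5% of all genes tested. Of 4 megakaryocyte markers tested, 2 were positive, led by Pf4 at 0.59, and 2 negative. Of 6 B cell markers, 3 were tested and had positive differences, from Cd79b at 0.50 to Pax5 at 0.02. Of the dim ones, Ms4a1 overlapped between the groups. Vpreb1 was lower in both Nol3-/- MPN arrays, at 4.26 and 4.45 against 4.65 and 4.50. Of 12 granulocyte and monocyte markers, 9 were tested, 3 with a positive and 6 with a negative difference. The summed linear signal of the 12 was 1160 and 1230 in Nol3-/- MPN against 1217 and 1754 in Nol3+/+. These sums overlapped, and only Nol3+/+ replicate 2 was high. S100a8 and S100a9 had the lowest differences, at -0.86 and -0.83, and Mpo and Adgre1 the highest, at 0.48 and 0.37. The summed signal of the 4 matched erythroid markers was 492.3 and 606.6 in Nol3-/- MPN against 436.7 and 377 in Nol3+/+. Tfrc, the transferrin receptor gene, carried this gap, at a linear signal of 316.2 and 426.8 in Nol3-/- MPN against 255.2 and 211.3 in Nol3+/+. The markers Klf1, Car1 and Epor each overlapped and summed to 176.1 and 179.8 in Nol3-/- MPN against 181.5 and 165.7 in Nol3+/+. The part of these cell type signals in the results on splicing genes was not tested. In such bulk samples, fewer cells of a type and less RNA per cell cannot be told apart.

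None of the 37 splicing genes passed the threshold over all genes (limma, Benjamini-Hochberg adjusted p under 0.05), against 4 of 16635 genes tested, or 0.024%. Only Snrpb2 reached an unadjusted p under 0.05, which is 2.7% of the 37 genes against 5.8% of all genes tested, 3.73% higher and 2.07% lower in Nol3-/- MPN. The log2 difference, Nol3-/- MPN minus Nol3+/+, was positive for 21 and negative for 16, a share of 56.8% positive against 51.7% of all genes. The median was 0.12 against 0.01 over all genes tested, and the quartiles were -0.10 and 0.34 against -0.13 and 0.16. The groups had separate arrays for 18 genes (48.6%), 13 higher and 5 lower in Nol3-/- MPN, against 35.5% of all genes tested, 19.7% higher and 15.9% lower. With 2 arrays against 2, an exact two-sided permutation test cannot give a p below 0.333, so a gap between the groups is a description here.

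**Figure D1:**
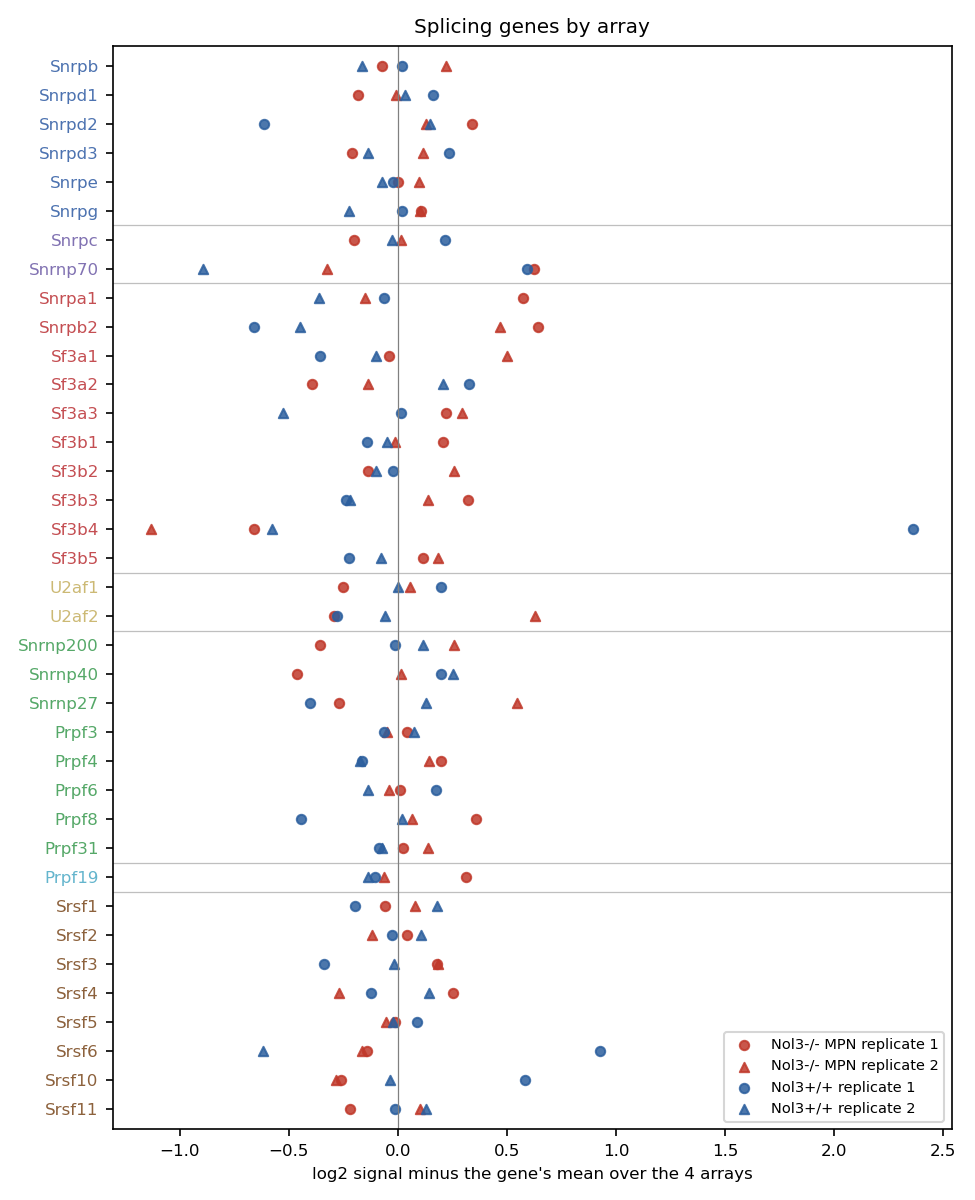
Log2 signal of each of the 37 splicing genes in each array, minus that gene's mean over the 4 arrays, with genes ordered and coloured by role (Sm, U1, U2, U2AF, U5 and tri-snRNP, Prp19, SR). Red points are Nol3-/- MPN and blue points Nol3+/+, with circles for replicate 1 and triangles for replicate 2; Snrpb2 has a wide gap between the groups with tight replicates, and the Nol3+/+ replicates of Sf3b4 lie far apart, at 9.22 and 6.28.

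The U2 snRNP proteins held both the highest and the lowest difference of the 37 genes. All 10 were measured, 8 with a positive difference and 2 with a negative one, and the median was 0.36. The arrays did not overlap for 8 of the 10, 6 higher and 2 lower in Nol3-/- MPN, or 80% against 35.5% of all genes tested. The median signal over the 10 genes was 7.03 and 7.13 in the Nol3-/- MPN arrays against 6.997 and 6.68 in the Nol3+/+ arrays, so the arrays did not overlap, but by 0.03 log2 units between the nearest pair. None of the 10 passed the threshold over all genes. Leaving out each array in turn gave medians between 0.26 and 0.33.

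Snrpb2 encodes a U2 snRNP protein that binds a stem-loop of U2 RNA together with the product of Snrpa1. It read 6.998 and 6.82 in the Nol3-/- MPN arrays, against 5.70 and 5.91 in the Nol3+/+ arrays. Both Nol3-/- MPN arrays were high and both Nol3+/+ arrays low, with no overlap and a gap far wider than that between the replicates of either group. It differed by 1.11 log2 units (SE 0.19, 95% interval from 0.64 to 1.58), or 2.16-fold (limma unadjusted p = 0.00166). It ranked at position 40 by p among the 16635 genes tested, and its adjusted p was 0.687. Over the 14 alternative settings the difference stayed between 1.01 and 1.22, with an unadjusted p under 0.05 in all 14 and an adjusted p between 0.215 and 0.9999. Snrpa1, its partner on U2 RNA, read 7.22 and 6.498 in Nol3-/- MPN against 6.59 and 6.29 in Nol3+/+. These arrays overlapped, and the difference of 0.42 had an interval from -0.35 to 1.196.

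The SF3a complex joins U2 snRNP to the pre-mRNA around the branch site, and its 3 subunits did not share a direction. Sf3a3 read 7.53 and 7.60 in Nol3-/- MPN against 7.32 and 6.78 in Nol3+/+, a difference of 0.51 (SE 0.27, limma adjusted p = 0.841). The groups were separate, but the Nol3+/+ replicates differed more from each other than Nol3+/+ replicate 1 did from the Nol3-/- MPN arrays. Without Nol3+/+ replicate 2 the difference was 0.24, and without Nol3+/+ replicate 1 it was 0.78. Sf3a1 read 6.82 and 7.36 in Nol3-/- MPN against 6.51 and 6.76 in Nol3+/+. These arrays did not overlap, by 0.06 log2 units between the nearest pair, and the difference was 0.46. Sf3a2 had the opposite sign, at 7.06 and 7.31 in Nol3-/- MPN against 7.78 and 7.66 in Nol3+/+. Both Nol3-/- MPN arrays were the low ones, and the difference was -0.53 (SE 0.23, limma adjusted p = 0.841).

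The SF3b complex, which binds the branch site adenosine region, was measured through 5 subunits. Sf3b1, its largest subunit and the gene most often mutated among splicing factors in human myelodysplastic syndromes, read 9.71 and 9.49 in Nol3-/- MPN against 9.36 and 9.45 in Nol3+/+. The groups were separate by 0.04 log2 units between the nearest arrays, and the difference of 0.19 had an interval from -0.30 to 0.68 (limma adjusted p = 0.917). Sf3b3 read 7.92 and 7.73 in Nol3-/- MPN against 7.36 and 7.38 in Nol3+/+, with tight replicates on both sides and a difference of 0.46. Sf3b5 and Sf3b2 differed by 0.30 and 0.12.

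Sf3b4, which encodes an RNA-binding SF3b subunit, had the lowest difference of the 37, and it rests on 1 array. It read 6.19 and 5.72 in Nol3-/- MPN against 9.22 and 6.28 in Nol3+/+. Nol3+/+ replicate 1 was high, whereas Nol3+/+ replicate 2 lay 0.08 log2 units above the nearer Nol3-/- MPN array. This gave -1.79 (SE 0.94, limma adjusted p = 0.841). Without Nol3+/+ replicate 1 it was -0.32, and without Nol3+/+ replicate 2 it was -3.26. Each of these fits kept 1 Nol3+/+ array and so measured no spread between Nol3+/+ arrays. Over the alternatives that kept all 4 arrays the limma adjusted p of Sf3b4 lay between 0.813 and 0.881.

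**Figure D2:**
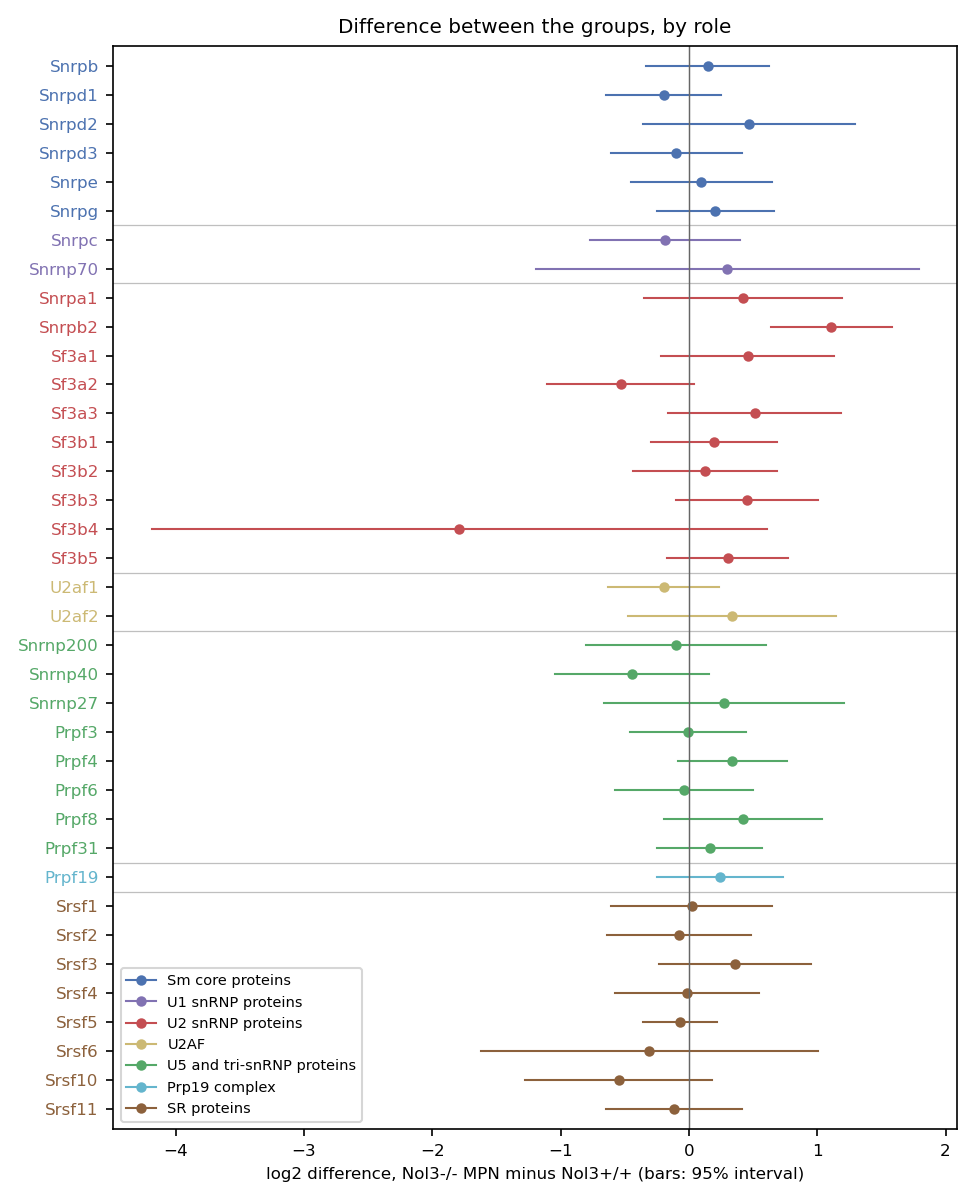
Log2 difference between the groups (point, Nol3-/- MPN minus Nol3+/+) with limma's 95% interval (bar) for each of the 37 splicing genes, ordered and coloured by role. The interval of Snrpb2, from 0.64 to 1.58, does not include 0, and those of the other 36 genes do, including Sf3b4 with the widest interval.

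The promoters of 3 U2 snRNP genes are shown because Snrpb2 had the highest difference of the 37 genes and Sf3a3 and Sf3a2 belong to 1 complex but differed in opposite directions. The windows run from 250 bases before to 50 bases after the gene's start and come from RefSeq on build GRCm38.p6. Each lies at chr2:143062819-143063118, chr4:124714611-124714910 and chr10:80798485-80798784, in the order printed, all on the plus strand and written 5′ to 3′. Capitals mark matches on either strand to the ETS motif CCGGAAG and the NRF1 motif (GCGC, any base, then TGCGC).
Snrpb2: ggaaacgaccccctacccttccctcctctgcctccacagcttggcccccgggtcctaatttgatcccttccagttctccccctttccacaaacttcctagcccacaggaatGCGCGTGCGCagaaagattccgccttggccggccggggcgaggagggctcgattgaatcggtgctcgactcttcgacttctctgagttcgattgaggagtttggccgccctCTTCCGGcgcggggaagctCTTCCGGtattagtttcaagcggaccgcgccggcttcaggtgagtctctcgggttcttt
Sf3a3: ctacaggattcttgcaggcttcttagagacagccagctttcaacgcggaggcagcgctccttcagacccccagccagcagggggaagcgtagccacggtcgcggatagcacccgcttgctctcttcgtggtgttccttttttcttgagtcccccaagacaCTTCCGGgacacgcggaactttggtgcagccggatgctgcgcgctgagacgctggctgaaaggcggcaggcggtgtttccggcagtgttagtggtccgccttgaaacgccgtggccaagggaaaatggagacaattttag
Sf3a2: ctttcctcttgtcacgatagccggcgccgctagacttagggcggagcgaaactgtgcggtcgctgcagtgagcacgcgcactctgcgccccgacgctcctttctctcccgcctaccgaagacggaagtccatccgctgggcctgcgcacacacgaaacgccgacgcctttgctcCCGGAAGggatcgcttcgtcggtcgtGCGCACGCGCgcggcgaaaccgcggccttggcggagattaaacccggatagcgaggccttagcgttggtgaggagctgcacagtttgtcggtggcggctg

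The Snrpb2 window holds 2 ETS matches and 1 NRF1 match, the Sf3a3 window 1 ETS match, and the Sf3a2 window 1 of each, and none of these matches overlap. RefSeq windows were found for 34 of the 40 genes, 42 windows in all, and these were CpG-rich, with a median observed over expected CpG ratio of 0.958 against 0.384 over all 32851 windows of the table. The ETS motif stood in 21 of the 42 windows (50%) against 8.86% of all windows. Among windows with a CpG ratio of 0.6 or more, the share was 52.5% for the splicing genes and 18.7% for all. NRF1 matches stood in 28.6% of the splicing gene windows against 4.6% of all windows, and in 30% against 11.8% among the CpG-rich ones. The CCAAT box, 38.1% against 37.4%, had nearly the same share in both. TATAAA stood in 9.52% against 13.6%, but in 10% against 5.98% among the CpG-rich windows. The E-box CACGTG stood in 9.52% against 7.15%, but in 10% against 11.3% among the CpG-rich windows. Both strands were searched, and these matches describe the letters of the windows and no binding.

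The Sm proteins, which form the ring around U1, U2, U4 and U5 RNA, had 6 of 7 members measured, 4 with a positive and 2 with a negative difference and a median of 0.12. The largest was that of Snrpd2, which read 8.39 and 8.18 in Nol3-/- MPN against 7.44 and 8.20 in Nol3+/+. The groups overlapped, since Nol3+/+ replicate 2 lay between the Nol3-/- MPN arrays, and only Nol3+/+ replicate 1 was low. The difference of 0.47 had an SE of 0.32, with a limma adjusted p = 0.867, and it was 0.09 without Nol3+/+ replicate 1 and 0.85 without Nol3+/+ replicate 2. Snrpg and Snrpe did not overlap between the groups and were higher in Nol3-/- MPN by 0.21 and 0.10, and Snrpd1 did not overlap and was lower, at -0.19. Snrpd1 has a second, dimmer row with the opposite sign, 0.50, so its direction depends on the row. Snrpb and Snrpd3 overlapped, at 0.15 and -0.10. The median signal of the 6 genes was 9.05 and 9.03 in Nol3-/- MPN against 8.96 and 8.94 in Nol3+/+.

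Of the proteins particular to U1 snRNP, which marks the start of the intron, Snrpc and Snrnp70 were measured. Snrnp70, the protein that binds the first stem-loop of U1 RNA, read 9.001 and 8.05 in Nol3-/- MPN against 8.97 and 7.48 in Nol3+/+. Replicate 1 was high and replicate 2 low in each group, and the difference of 0.30 had an interval from -1.19 to 1.79. Snrpc differed by -0.19, with overlapping arrays.

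U2AF recognises the end of the intron, with the small subunit U2af1 reading the terminal AG and the large subunit U2af2 the pyrimidine tract before it. U2af1 read 5.36 and 5.66 in Nol3-/- MPN against 5.81 and 5.61 in Nol3+/+. The arrays overlapped, and the difference of -0.20 had an interval from -0.63 to 0.23 (limma adjusted p = 0.889). U2af2 read 5.21 and 6.13 in Nol3-/- MPN against 5.23 and 5.45 in Nol3+/+. Only Nol3-/- MPN replicate 2 was high, and the difference was 0.34 with an interval from -0.47 to 1.15.

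The U5 and tri-snRNP proteins had 8 members measured, 4 positive and 4 negative, with a median of 0.08. Prpf8, the scaffold of the catalytic centre, read 6.86 and 6.57 in Nol3-/- MPN against 6.06 and 6.52 in Nol3+/+, a difference of 0.42 with separate groups. Prpf4, a protein of U4/U6 snRNP, had the tightest replicates among them, at 6.55 and 6.498 in Nol3-/- MPN against 6.19 and 6.18 in Nol3+/+, and differed by 0.34 (limma adjusted p = 0.841). Prpf31, also of U4/U6, was separate at 0.16. Snrnp40, a WD40-repeat protein of U5, was the separate one in the other direction, at 6.25 and 6.73 in Nol3-/- MPN against 6.91 and 6.96 in Nol3+/+, and differed by -0.45. Overlapping arrays were found for the U5 helicase gene Snrnp200 at -0.10, the tri-snRNP bridge gene Prpf6 at -0.04, Prpf3 at -0.01 and Snrnp27 at 0.28. Prpf19, the ubiquitin ligase of the Prp19 complex that acts when the spliceosome is activated, read 6.45 and 6.08 in Nol3-/- MPN against 6.03 and 6.00 in Nol3+/+, a difference of 0.25.

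The SR proteins had 8 of 9 members measured and were the only role group with more negative than positive signs, 2 with a positive and 6 with a negative difference and a median of -0.07. The arrays did not overlap for 2 of the 8 (25%), against 35.5% of all genes tested. Srsf10, a splicing repressor when dephosphorylated, had the lowest difference. It read 7.66 and 7.64 in Nol3-/- MPN against 8.51 and 7.89 in Nol3+/+, with Nol3+/+ replicate 1 high. The difference was -0.55 (SE 0.29, limma adjusted p = 0.841), and it was -0.24 without Nol3+/+ replicate 1 and -0.86 without Nol3+/+ replicate 2. Srsf3, one of the smallest SR proteins and a link to mRNA export, was the separate gene in the other direction, at 8.43 and 8.44 in Nol3-/- MPN against 7.92 and 8.24 in Nol3+/+. Its difference of 0.36 had an interval from -0.23 to 0.95.

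Srsf2, mutated in human myeloid neoplasms, read 7.73 and 7.57 in Nol3-/- MPN against 7.66 and 7.80 in Nol3+/+. The arrays overlapped and the difference of -0.08 had an interval from -0.64 to 0.48 (limma adjusted p = 0.973). Srsf5 had the smallest SE of the 37 genes, 0.11, with signals from 11.18 to 11.33 over the 4 arrays and a difference of -0.07 whose interval ran from -0.35 to 0.22. Srsf6 read 8.96 and 8.93 in Nol3-/- MPN against 10.02 and 8.48 in Nol3+/+, so the Nol3-/- MPN arrays lay between the Nol3+/+ arrays. Its difference was -0.31, and a second, dimmer row gave 0.12. Srsf1, an archetype of the family, Srsf4 and Srsf11 overlapped, at 0.02, -0.02 and -0.11.

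**Figure D3:**
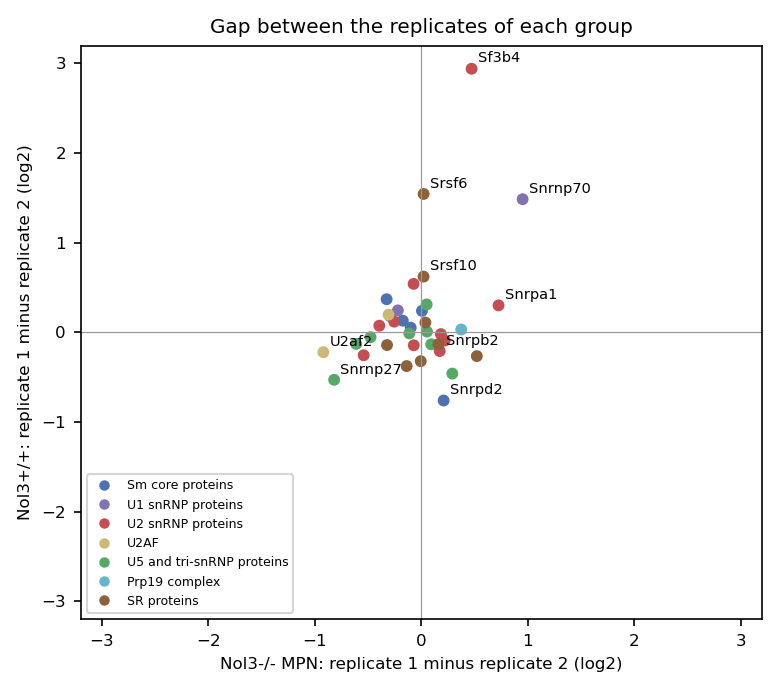
Gap between the replicates of each group for each of the 37 splicing genes, coloured by role: replicate 1 minus replicate 2 in Nol3-/- MPN on the horizontal axis and in Nol3+/+ on the vertical axis, both in log2 units. Sf3b4, Srsf6 and Snrnp70 lie over 1 log2 unit above 0 on the Nol3+/+ axis, and no gene lies over 1 unit from 0 on the Nol3-/- MPN axis.

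The gap between replicates was wider in Nol3-/- MPN for 20 of the 37 genes and wider in Nol3+/+ for 17. The gaps of the groups differed by more than 2-fold for 24 genes (64.9%), against 60.6% of all genes tested. The median gap between replicates was 0.22 log2 units in Nol3-/- MPN and 0.21 in Nol3+/+, against 0.18 and 0.20 over all genes tested. A gap of at least 1 log2 unit was found for 0 of the 37 genes in Nol3-/- MPN and for 3 in Nol3+/+. Among all 16635 genes tested it was found for 347 in Nol3-/- MPN and for 680 in Nol3+/+, so it was also more frequent in Nol3+/+ there. The 3 splicing genes were Sf3b4, Srsf6 and Snrnp70, and in all 3 Nol3+/+ replicate 1 was the higher array. Without Nol3+/+ replicate 1 the median difference of the 37 genes was again 0.12, with 23 positive. Over all genes tested it was then 0.02, with 8989 of 16635 positive. Without Nol3+/+ replicate 2 the median of the 37 was 0.09, with 22 positive, against 0.01 over all genes, with 8549 positive. Without Nol3-/- MPN replicate 1 it was 0.08, with 23 positive, against 0.03 over all genes, with 9221 positive. Without Nol3-/- MPN replicate 2 it was 3e-04, with 19 positive, against -0.02 over all genes, with 7796 positive. The median signal of the 37 genes was 7.06 and 7.31 in the Nol3-/- MPN arrays against 7.20 and 6.96 in the Nol3+/+ arrays, so the groups overlapped on this measure.

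**Figure D4:**
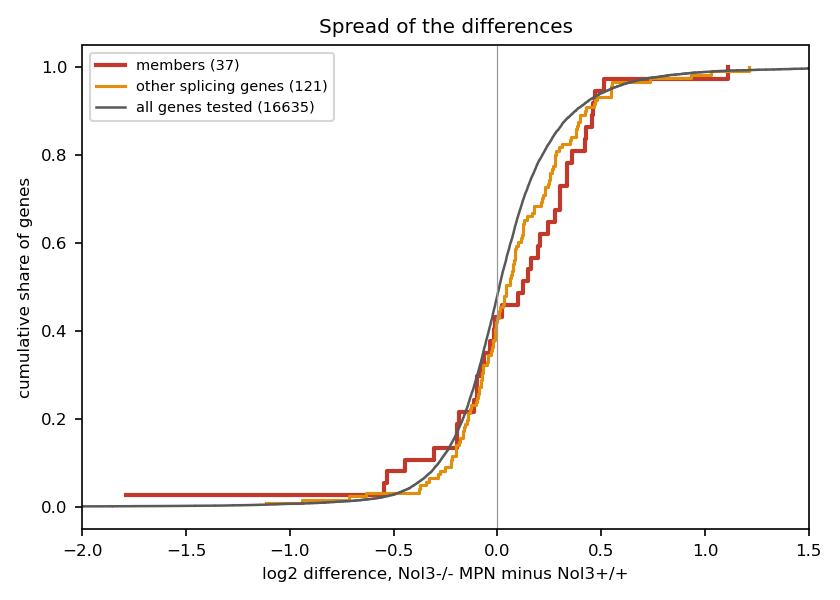
Cumulative share of genes by log2 difference (Nol3-/- MPN minus Nol3+/+) for the 37 splicing genes, 121 other splicing genes and all 16635 genes tested, shown from -2 to 1.5. The line of the splicing genes lies right of that of all genes over most positive values, with an upper quartile of 0.34 against 0.16, and crosses it at negative values.

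The rest of the splicing machinery was read from 13 further lists with 144 genes, of which 121 were tested. None passed the threshold over all genes, and 7 reached an unadjusted p under 0.05, 7 higher and 0 lower in Nol3-/- MPN. That is 5.79%, against 5.8% of all genes tested, 3.73% higher and 2.07% lower. The share over both directions thus lay at the background. The count was 1 (0.826%, against 3.44% of all genes) without Nol3-/- MPN replicate 1 and 4 (3.31% against 4.92%) without Nol3-/- MPN replicate 2. It was 3 (2.48% against 5.57%) without Nol3+/+ replicate 1 and 19 (15.7% against 11.4%) without Nol3+/+ replicate 2. The difference was positive for 69 and negative for 52, with a median of 0.04. The arrays did not overlap for 39 (32.2%), 30 higher and 9 lower in Nol3-/- MPN. Among all genes tested this share was 35.5%, 19.7% higher and 15.9% lower.

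A list of other U2, U5 and tri-snRNP proteins, which also holds U1-associated factors such as Luc7l2, had 16 genes tested. Of these, 3 (18.8%) reached an unadjusted p under 0.05, against 5.8% of all genes tested. The arrays did not overlap for 4 of the 16 (25%), against 35.5% of all genes tested. Snu13, which binds the kink-turn of U4 RNA and is also part of box C/D small nucleolar particles, read 8.09 and 7.29 in Nol3-/- MPN against 6.15 and 6.81 in Nol3+/+. It differed by 1.21 with an SE of 0.38, and the groups did not overlap. Eftud2, the GTPase of U5 snRNP, read 6.83 and 6.74 in Nol3-/- MPN against 6.14 and 6.32 in Nol3+/+, and differed by 0.55. Dimmer second rows of Snu13 and Eftud2 gave 0.05 and -0.02. Sf3b6, the SF3b subunit that contacts the branch site adenosine, read 8.61 and 8.64 in Nol3-/- MPN against 8.14 and 8.01 in Nol3+/+. The replicates of Sf3b6 were tight in both groups, and it differed by 0.55 with an SE of 0.21. Each of these 3 genes had a limma adjusted p of 0.841. Luc7l2, a U1-associated factor altered in human myeloid neoplasms, differed by -0.01.

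The hnRNP proteins, which bind nascent RNA and often oppose SR proteins, had 8 positive and 9 negative of 17 tested, led by Hnrnpa3 at 0.93 and Hnrnpab at 0.55. The Prp19 and activated complex proteins had 11 positive of 18, with the helicase gene Aqr at 1.03 and Rnf113a2 at 0.73. Aqr was spread between its Nol3-/- MPN arrays, at 6.89 and 5.75, against 5.40 and 5.18 in Nol3+/+. The splicing regulators had 13 positive of 20 and a median of 0.06, with the X-linked Mbnl3 at 0.55 and the neuronal regulator Rbfox1 at -0.29. Of these, Hnrnpa3, Hnrnpab, Aqr and Mbnl3 reached an unadjusted limma p under 0.05, each at an adjusted p of 0.841. That is 11.8% of the hnRNP genes tested, 5.56% of the Prp19 and activated complex genes and 5% of the regulators. The share was 5.8% of all genes tested.

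In the remaining 9 lists, which had from 2 to 8 genes tested each, 0 genes reached an unadjusted p under 0.05. The share was 5.8% of all genes tested. The list of the SMN complex, which loads Sm rings onto small nuclear RNA, also holds partners such as Clns1a and Prmt5. It had 6 positive of 8 tested and a median of 0.20, with Clns1a at 0.46 and Strap at 0.38. A second, dimmer row of Clns1a gave -0.12. The minor spliceosome list had 5 positive of 6 and a median of 0.13, with Snrnp25 and Snrnp48 at 0.40 each, and Zrsr2 was matched to no row, alone or with other symbols. The LSm ring of U6 had a median of 0.14, with Lsm8 at 0.43 and Lsm5 at 0.28, and the second step factors one of 0.22, with Cdc40 at 0.25 and Slu7 at 0.22. The splicing helicases had a median of 0.02, with Ddx41 at 0.23 and Dhx16 at -0.17, and the exon junction complex one of -0.18, with Eif4a3 at -0.25 and Rnps1 at -0.22. The other SR proteins and Tra2 had 4 positive of 7 tested and a median of 0.01, with Srsf9 at -0.20 and Srsf12 at -0.37. Tra2b was lowest, at -0.38, and Sfswap highest, at 0.28. The arrays did not overlap for 5 of the 7 (71.4%), 2 higher and 3 lower in Nol3-/- MPN. The share was 35.5% of all genes tested.

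The kinases that phosphorylate SR proteins had 1 positive of 5 tested and a median of -0.05. Clk1 read 9.93 and 9.87 in Nol3-/- MPN against 10.23 and 10.24 in Nol3+/+, with tight replicates and separate groups. Its difference of -0.33 had an SE of 0.16, with a limma adjusted p = 0.841. Srpk2 differed by -0.10. Among the U RNA genes, 4 had a row of their own and 2 were above the limit for dim genes. Rnu11, the small nuclear RNA of the minor spliceosome that reads the intron start, read 7.32 and 7.79 in Nol3-/- MPN against 8.48 and 8.06 in Nol3+/+, a difference of -0.71 (SE 0.29, limma adjusted p = 0.841). Rnu12, its partner at the branch site, read 8.21 and 7.08 in Nol3-/- MPN against 10.05 and 7.47 in Nol3+/+. The groups of Rnu12 overlapped, with Nol3+/+ replicate 1 the highest array by over 1 log2 unit.

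**Figure D5:**
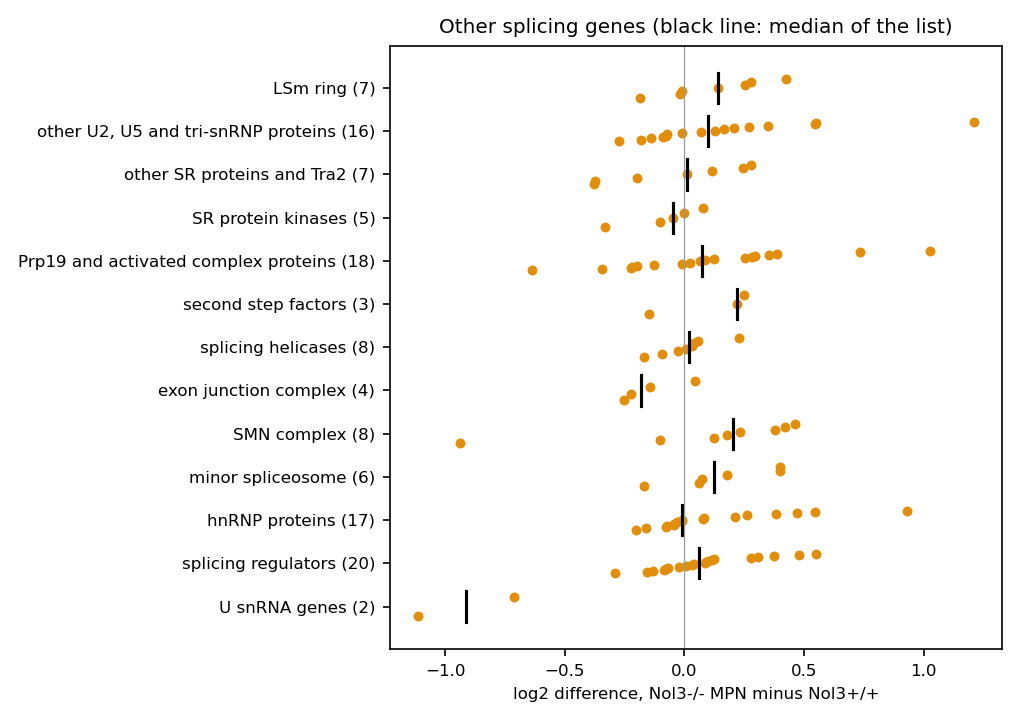
Log2 difference (Nol3-/- MPN minus Nol3+/+) of each tested gene of the 13 other splicing lists, with 1 point per gene, the number of genes in parentheses and a black line at the list's median. The medians of the 12 protein lists lie between -0.18 and 0.22, and the 2 U RNA genes lie at -0.71 and -1.12.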

How the data were processed

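The authors deposited 1 table of normalized values for 4 arrays, with 41345 rows. Signals in the deposited table were read as log2, a scale taken from their range of 2.84 to 13.5, since neither the scale nor the base of the logarithm is stated. The submitters' processing notes name Transcriptome Analysis Console and Affymetrix Expression Console, and for background correction and normalization the method is not given in the sources used here. Per the labels' protocols, RNA was amplified by single-primer isothermal amplification.

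Rows were named through the platform annotation: 23521 rows had 1 symbol, 1814 several and 16010 none. Of 22180 genes, 5545 with a mean under the 25th percentile (4.835) were left out as dim. For the remaining 16635, limma 3.58.1 (R 4.3.3) fitted the group difference with lmFit and eBayes and a variance trend, with Benjamini-Hochberg adjustment over all of them and a threshold of 0.05. SE is limma's standard error. The fit was tested on simulated data. No 2 arrays were identical. With 2 arrays a group, precision is limited by their number.

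The splicing genes, lists and tests were chosen with earlier results of these data known. Signals in every array are given for splicing genes with an unadjusted p under 0.05, the 3 highest and 3 lowest differences, Sf3b1, Srsf2 and U2af1, and the 2 genes with the smallest p of each other list are named. Other genes given by array were chosen after their values were seen. The labels do not say that same-numbered replicates pair the arrays, so the main fit used no pairing. Across the genes tested, deviations of same-numbered replicates from their group means correlated at 0.05. With 2 arrays a group this value cannot decide whether arrays were paired. Alternatives were a replicate block, each array left out, other variance models, array weights, other scalings, other limits for dim genes, the mean of all rows of a gene, and a fit without sex-linked genes.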

Additional observations from a re-analysis of the deposited data

How the results depend on the processing

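None of the 37 splicing genes, and none of the other splicing genes, passed the adjusted limma threshold under any of the 14 alternatives, where 1 to 6 of the 37 reached an unadjusted p under 0.05. Over all genes, limma called 0 with the replicate number as a block (972 at an unadjusted p under 0.05) and 0 with X- and Y-linked genes left out (897). Leaving out each array in turn gave between 0 and 39 called genes, with 0 without Nol3-/- MPN replicate 1 (572) or replicate 2 (818), 18 without Nol3+/+ replicate 1 (927) and 39 without Nol3+/+ replicate 2 (1894, against 965 with all arrays). With the replicate block, 2 of the 37 splicing genes (5.41%, against 5.84% of all genes) reached an unadjusted p under 0.05, and none changed its adjusted call. The median of the 37 lay between 3e-04, without Nol3-/- MPN replicate 2, and 0.15, with the mean of all rows of a gene. Srsf2 ran between -0.16 and 3e-04, and its sign turned only without Nol3-/- MPN replicate 2, where the difference was 3e-04. The other 8 genes followed by alternative kept their direction in all 14. Sf3b4 ran between -3.26 and -0.32, Snrpd2 between 0.09 and 0.85, Srsf10 between -0.86 and -0.24 and U2af1 between -0.35 and -0.04, each range set by which Nol3+/+ or Nol3-/- MPN array was left out. The results on the U2 snRNP and SR protein medians under the alternatives were added after the data were seen. Without detection values, a low signal such as that of U2af1 cannot be set against background.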
